A study of Homo sapiens with 8 samples.

Results

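The unfolded protein response and the integrated stress response were followed through 10 genes in outer and inner cells of MCF10A-5E acini: ATF6, ERN1, EIF2AK3, XBP1, HERPUD1, ATF4, DDIT3, TRIB3, ASNS and DDIT4. They were taken by gene symbol, which gave 11 of the 20589 probes on the array, ERN1 having 2 and each other gene 1. MCF10A is a non-tumorigenic human mammary epithelial line, 5E is a single clone of it, and embedded in Matrigel it builds acini, here grown to day 6. Both groups shared a medium with EGF, insulin, hydrocortisone, cholera toxin, horse serum, penicillin and streptomycin, with no other agent. Around 50 cells per sample were laser-microdissected from 8 µm sections, either from the outer layer in contact with matrix or from the interior, and the small amount of RNA was multiplied by poly(A) PCR. Each of the 4 outer and 4 inner samples was read on an Illumina HumanRef-8 v2.0 array. The design text describes quadruplicate amplification and names no separate cultures, so the p-values measure sample-to-sample spread that may be no more than technical.

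Unfolded protein in the endoplasmic reticulum (ER) is sensed by 3 membrane proteins, which are products of ERN1 (IRE1), EIF2AK3 (PERK) and ATF6. IRE1 splices the XBP1 transcript, PERK phosphorylates the initiation factor eIF2alpha, and ATF6 is cut in the Golgi to release a transcription factor. Phosphorylated eIF2alpha lowers general translation while favouring translation of ATF4, whose targets include DDIT3 (CHOP), TRIB3 and ASNS, and kinases that sense amino acid lack, double-stranded RNA or haem lack feed into the same step. Much of this control is exerted on splicing, cleavage and translation, which a probe for the transcript does not read. In mammary epithelium the response serves secretion, and it is also a route by which cells deprived of matrix or nutrients adjust.

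Per array, 6429 to 7000 probes were detected (detection p below 0.01), at a mean intensity of 344.4 to 533.0. Of 17 epithelial markers 11 were tested, among them KRT5, KRT14, TP63 and EPCAM, while CDH1, KRT6A and KRT19 were detected on 0 arrays. No epithelial marker passed the test between groups, and their summed normalized intensity was 9383 to 10584 on outer and 8791 to 11026 on inner arrays. Of 10 fibroblast markers 3 were tested (DCN, FAP and COL1A2, summed 2314 to 5536 on outer and 1670 to 4860 on inner arrays), and 5 of the 10 were detected on 0 arrays. All 8 endothelial markers were detected on 0 arrays, and 1 of 10 leukocyte markers was tested (CSF1R, 26.9 to 299.8 on outer and 19.2 to 894.5 on inner arrays), with 7 of the 10 detected on 0 arrays. The part of these transcripts in the results was not tested.

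The promoters of 3 members hold exact copies of the elements through which these pathways are known to act, and they are shown because they tie XBP1, HERPUD1 and ASNS to the ER and to the nutrient branch by sequence. The sequences are from RefSeq (GRCh38.p14), read 5′ to 3′ in the direction of transcription, with the fixed letters of the element in capitals. The ER stress element reads CCAAT, any 9 bases and CCACG, and is bound by NF-Y and ATF6. Element II reads ATTGG, any base and CCACG, and is bound by ATF6 with NF-Y, or by spliced XBP1. The nutrient-sensing element TGATGAAAC is bound by ATF4 and its partners.
XBP1, element I, chr22:28800583-28800641, minus strand: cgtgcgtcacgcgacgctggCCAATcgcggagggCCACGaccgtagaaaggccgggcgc
HERPUD1, element II, chr16:56932005-56932055, plus strand: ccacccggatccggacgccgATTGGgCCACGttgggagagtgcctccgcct
ASNS, nutrient-sensing element, chr7:97872448-97872496, minus strand: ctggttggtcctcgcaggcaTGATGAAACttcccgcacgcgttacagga
In the 250 bases before each annotated start, both strands searched, the 3 elements were present in 0.074%, 0.0513% and 0.197% of 35116 promoters, and in 1 of the 10 members each. These matches describe letters only, and the arrays carry no measurement of binding.

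No member passed the test between outer and inner cells (limma with Benjamini-Hochberg adjustment, 0 of the 8 member probes tested). The share of all 6698 tested probes that passed was 0.0597%, and with the background taken from all probes, where again 0 of 8 passed, it was 0.0149%. At an unadjusted p below 0.05 there was 1 of 8, the probe ILMN_20244 of ERN1, where 8.05% of all tested probes lay. That count was 0 in 11 of 18 alternatives, among them each that left out outer replicate 1, outer replicate 4 or an inner replicate. Of the 8 tested probes this one passed the filter on detection only through the outer arrays. Outer and inner values overlapped for each of the 11 member probes, against 5.26% of tested probes whose groups did not overlap. Of the 8 tested, 4 were higher and 4 lower in outer cells, where 50.6% of all tested probes were higher, and the median log2 difference was -0.01, beside 0.01 over all tested probes. What differed from gene to gene was the spread between arrays of one group, from nearly none for DDIT4 and ATF4 to a swing between background and high signal for DDIT3. Each level given here is log2 of the background-corrected, quantile-normalized intensity, comparable between arrays but not between probes.

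**Figure D1:**
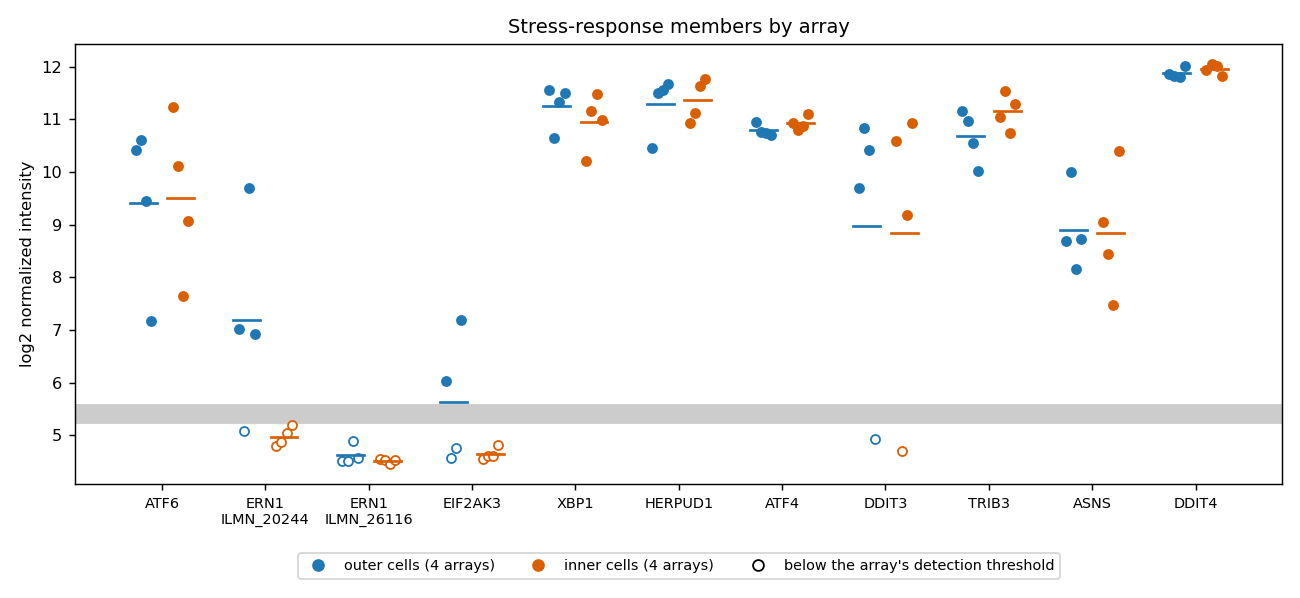
Log2 normalized intensity (vertical axis) of each member probe on the 4 outer (blue) and 4 inner (orange) arrays, with bars at the group means. Open points lie below the detection threshold of their array, which spans 5.23 to 5.59 over the arrays (grey band). DDIT4 and ATF4 form tight clusters, while DDIT3 drops below the threshold on 1 array of each group.

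ERN1 is the sensor whose values stood furthest apart. Probe ILMN_20244, designed to transcript variant 2, read 7.03, 5.08, 9.70 and 6.93 on outer replicates 1 to 4. On inner replicates 1 to 4 it read 4.79, 4.88, 5.04 and 5.20. Outer replicates 1, 3 and 4 were above the threshold of their arrays, while outer replicate 2 and all 4 inner arrays were below it, and outer replicate 2 lay inside the inner range. The raw intensities were 181.4, 48.0, 923.3 and 127.1 on outer arrays and 39.0 to 53.1 on inner arrays.

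With the main background, the outer mean of this probe, outer replicate 2 included, was 3.42-fold above the thresholds of the inner arrays. Without outer replicates 2 and 3 in turn it was 5.56-fold and 1.92-fold above them. The fitted log2 difference, 2.21 (SE 0.86), did not pass (limma, adjusted p = 0.584, over alternatives 0.430 to 0.903). The probe entered the test only through the outer arrays, where it is high, so its unadjusted p of 0.0348 supports nothing. Leaving out outer replicate 3 brought the difference to 1.37, and the background taken from all probes brought it to 0.46. In the authors' deposited table the outer over inner ratio of scaled medians was 3.04.

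The row for ILMN_20244 has half-values among its bead numbers and detection p-values off the regular steps, as 1532 of 1537 such rows do, and may combine a pair of measurements. By its own detection p it was present on 4 outer arrays and inner replicate 4, and by intensity on 3 outer arrays, so it drops out of the test when detection is set by intensity. The other ERN1 probe, ILMN_26116 for variant 1, was below the threshold on all 8 arrays, with levels of 4.51 to 4.90 on outer and 4.45 to 4.55 on inner arrays. ERN1 lies at chr17:64039142-64130144 (GRCh38.p14). In whole-array data from about 50 cells, fewer cells that carry a transcript and less of it per cell cannot be told apart.

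EIF2AK3, which encodes PERK, was near background in most samples. It read 6.03, 4.57, 4.76 and 7.18 on outer replicates 1 to 4 and 4.56, 4.61, 4.61 and 4.81 on the inner arrays. Outer replicates 1 and 4 were above their thresholds, the other 2 outer arrays and all inner arrays were not, and it was detected on too few arrays to enter the test. The outer mean was 1.17-fold above the inner thresholds with the main background, but without outer replicate 4 it was below them and gave no bound. The fitted log2 difference of 0.99 became 0.47 without that array and 0.066 with the background taken from all probes. ERN1 and EIF2AK3 were thus both above the threshold on outer replicates 1 and 4 and on no inner array, with 3 and 2 of 4 outer arrays. The share of all probes with such a pattern was not counted and no test of it was made, so nothing is read from it. Other probes near background went either way, not evenly. CLDN1 was detected on 2 outer and 0 inner arrays. PPP1R15A, UGGT1 probe ILMN_17794 and DCN probe ILMN_19041 were detected on 0 outer and 2 inner arrays, and CD14 on 0 outer and 3 inner arrays. They come from the gene and marker lists used here and do not give the share over all probes.

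ATF6, the sensor that becomes a transcription factor, was detected on all 8 arrays but varied widely in both groups. Its levels were 10.43, 10.60, 9.44 and 7.18 on outer arrays and 11.24, 10.11, 7.65 and 9.06 on inner arrays. The lowest values, on outer replicate 4 and inner replicate 3, were separated from the highest, on inner replicate 1, by up to 16.7-fold. The log2 difference was -0.10 with a 95% interval of -2.40 to 2.19 (limma, adjusted p = 0.994), so a difference of several-fold either way is compatible with these arrays. It became 0.64 without outer replicate 4, 0.47 without inner replicate 1, 0.10 without inner replicate 2 and -0.72 without inner replicate 3.

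XBP1, the transcript that IRE1 splices, was strong on all arrays, at 11.56, 10.65, 11.33 and 11.50 on outer and 10.21, 11.16, 11.48 and 10.98 on inner arrays. Outer replicate 2 and inner replicate 1 were the low samples, and the groups overlapped. Its log2 difference was 0.30 with a 95% interval of -0.51 to 1.12 (limma, adjusted p = 0.887), and it shrank to 0.05 without inner replicate 1 and grew to 0.51 without outer replicate 2. The array does not separate the spliced from the unspliced form.

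HERPUD1, an ER membrane protein that helps to remove misfolded proteins, and whose promoter holds the element II shown above, read 10.47, 11.49, 11.56 and 11.67 on outer and 10.94, 11.13, 11.63 and 11.77 on inner arrays. Outer replicate 1 was the lowest of the 8. The log2 difference was -0.07 with a 95% interval of -0.88 to 0.74 (limma, adjusted p = 0.986). It changed sign to 0.21 without outer replicate 1, and to 0.02 and 0.06 without inner replicates 3 and 4.

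ATF4, the transcription factor at the centre of the integrated stress response, was among the steadiest transcripts. It read 10.95, 10.76, 10.74 and 10.71 on outer and 10.94, 10.80, 10.87 and 11.10 on inner arrays, a span of 1.31-fold over all 8. The deposited detection p of this row missed 0.01 on each array although its raw intensity was 1510 to 2270 and lay above the threshold on all 8, and its bead numbers also hold half-values. With detection set by intensity its log2 difference was -0.14 with a 95% interval of -0.58 to 0.31 (limma, adjusted p = 0.910, with 0.0565% of 7078 probes passing). Its SD within groups, 0.12, lay at percentile 2.49 of the probes tested in that way. Like the ERN1 row, this row may combine a pair of measurements, and whether that narrowed its SD was not tested.

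DDIT3 encodes CHOP, a transcription factor of prolonged ER stress that lies at chr12:57516588-57520517 (GRCh38.p14). Its levels were 9.70, 10.84, 10.41 and 4.94 on outer and 10.59, 4.70, 9.18 and 10.94 on inner arrays. In each group 3 arrays were high and 1 was below the threshold, outer replicate 4 and inner replicate 2. Raw intensities there were 47.5 and 46.9 with bead standard errors of 5.05 and 3.80, against 630.0 to 1823 on the other 6 arrays. The whole range was 75.6-fold, and the SD within groups of 2.80 was at percentile 99.5 among the 1010 tested probes whose mean level lay within 0.5.

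The log2 difference of DDIT3 was 0.12 with a 95% interval of -3.98 to 4.22 (limma, adjusted p = 0.996), too wide to say anything of its direction. Leaving out 1 low array moved it to 1.47 (outer replicate 4) or -1.26 (inner replicate 2), and without outer replicate 1, 2 or 3 it was -0.12, -0.50 or -0.36. Of the arrays where DDIT3 was low, outer replicate 4 also held the lowest ATF6 (7.18) and TRIB3 (10.03) of the 8 arrays and the highest EIF2AK3 (7.18). Inner replicate 2 held the highest TRIB3 (11.54). Each of these arrays held the lowest ATF4 of its group (10.71 on outer replicate 4, 10.80 on inner replicate 2). Each also held the highest DDIT4 of its group (12.02 and 12.05). ATF4 and DDIT4 spanned only 1.31-fold and 1.19-fold over all 8 arrays, and a link with DDIT3 was not tested.

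TRIB3, a pseudokinase induced by ATF4 and CHOP that restrains them and AKT, had the most negative difference among the tested members. It read 11.16, 10.98, 10.56 and 10.03 on outer and 11.05, 11.54, 10.75 and 11.30 on inner arrays. Outer replicates 3 and 4 were below each inner array, and outer replicates 1 and 2 were within the inner range. The log2 difference of -0.48 had a standard error of 0.32 and a 95% interval of -1.22 to 0.27 (limma, adjusted p = 0.778), and it was -0.26 without outer replicate 4 and -0.64 without outer replicate 1.

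ASNS, asparagine synthetase, carries the nutrient-sensing element shown above. It read 8.69, 10.01, 8.16 and 8.72 on outer and 9.05, 8.44, 7.48 and 10.41 on inner arrays, with outer replicate 2 and inner replicate 4 high. The log2 difference was 0.05 with a 95% interval of -1.50 to 1.60 (limma, adjusted p = 0.996). It turned to -0.32 without outer replicate 2, -0.08 without inner replicate 2, -0.40 without inner replicate 3 and -0.11 with the background taken from all probes, and was 0.57 without inner replicate 4.

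DDIT4 (REDD1), an inhibitor of mTORC1 induced by stress, hypoxia and glucocorticoids, was the steadiest member. It read 11.87, 11.82, 11.80 and 12.02 on outer and 11.94, 12.05, 12.01 and 11.83 on inner arrays, a span of 1.19-fold. The log2 difference was -0.08 with a 95% interval of -0.51 to 0.35 (limma, adjusted p = 0.949). Its SD of 0.10 was at percentile 1.63 of all tested probes, and at percentile 4.90 among the 490 tested probes of similar level.

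**Figure D2:**
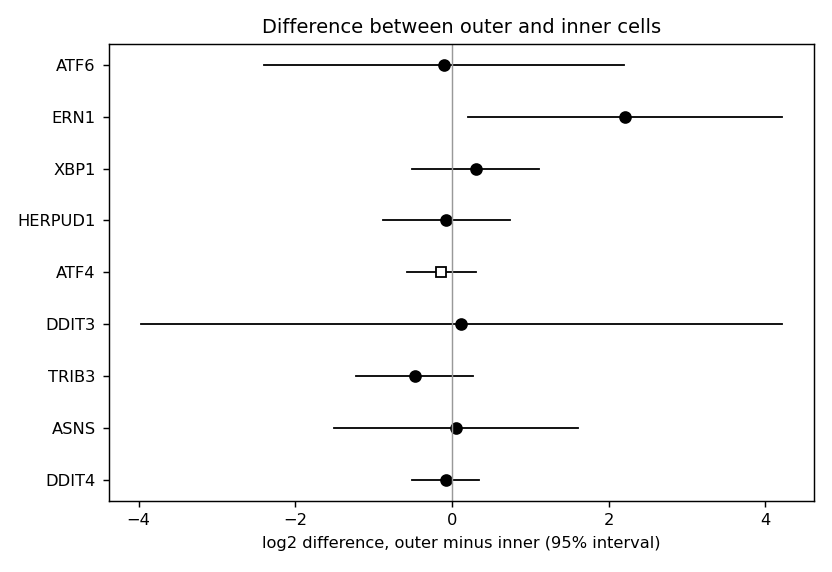
Log2 difference, outer minus inner, of the 8 tested member probes (filled points) and of ATF4 with detection set by intensity (open square), with 95% intervals of the limma fit. The intervals of DDIT3 and ATF6 are the widest, those of DDIT4 and ATF4 the narrowest, and that of ERN1 lies above 0 before adjustment for 6698 probes. ERN1 entered the test only through the outer arrays, where it is high, so the place of its interval supports nothing.

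The tested members ran from percentile 1.63 (DDIT4) to percentile 99.6 (DDIT3) of the SD within groups over all tested probes. Their median SD was 0.76, the same as the 0.76 of all tested probes. Above the upper quartile lay 3 of the 8 (DDIT3, ATF6 and ERN1), with ERN1 only just there at percentile 75.8. So few probes cannot be set against the share of all probes. Bead standard errors were 2.74% to 11.9% of the intensity, with a median of 5.58%, and cover the scatter of beads within an array only. For probes of similar level, the percentile of the SD was 90.5 for ATF6, 71.6 for HERPUD1, 63.9 for XBP1, 61.2 for ERN1, 54.9 for ASNS and 48.2 for TRIB3. The percentiles describe these 8 arrays, and how much of the spread came from amplification of so few cells was not tested.

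**Figure D3:**
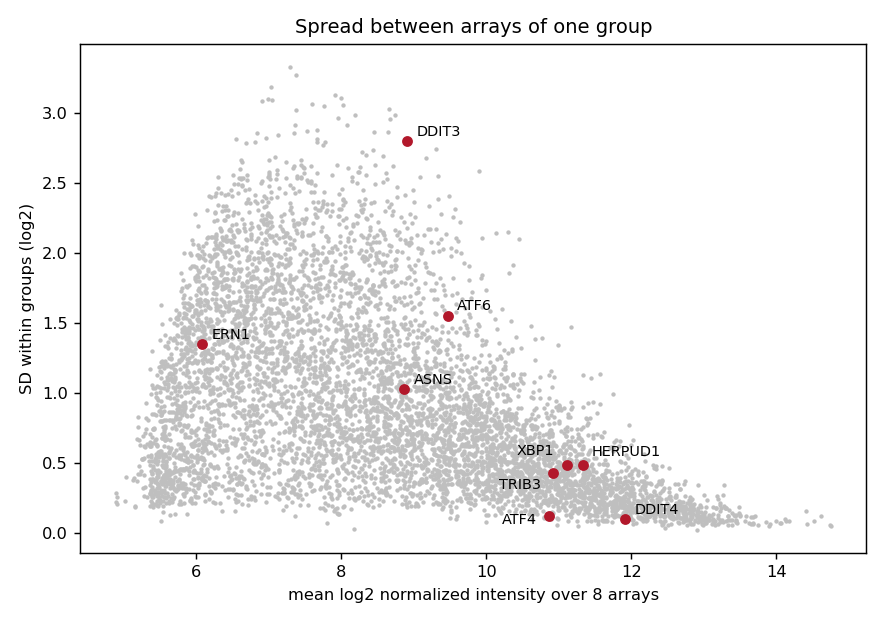
SD within groups (log2, vertical axis) against the mean log2 normalized intensity over 8 arrays (horizontal axis) for all 6698 tested probes (grey), the 8 tested member probes and ATF4 (red). DDIT3 sits near the upper edge for its level and DDIT4 and ATF4 near the lower edge.

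Other genes of the pathway were taken from 7 lists with 103 genes, of which 70 were tested and 73 would enter with detection set by intensity. None passed (limma, 0 of 70, beside 0.0597% of all tested probes), 33 were higher and 37 lower in outer cells, and the median log2 difference was -0.03. At an unadjusted p below 0.05 there were 4 (CREB3L4, MBTPS1, MANF and EDEM1), 5.71% of the 70 beside 8.05% of all tested probes. Leaving out 1 array gave 0 to 5, with 0 without inner replicate 3, 1 without outer replicate 4 or inner replicate 2, and 2 without outer replicate 3 or inner replicate 4. CREB3L4, detected on 2 outer and 4 inner arrays, met the filter on detection only through the inner arrays. It is high there, so its unadjusted p supports nothing.

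Among 5 tested ER membrane factors and their proteases, 4 were lower and 1 higher in outer cells, with a median log2 difference of -0.87. CREB3L4, a relative of ATF6, differed by -2.33 (outer 6.15 ± 1.88, inner 8.48 ± 1.13, SD of 4 arrays) and was detected on 2 outer and 4 inner arrays. MBTPS1, the Golgi protease that makes the initial cut in ATF6, differed by -0.87 (outer 9.66 ± 0.63, inner 10.52 ± 0.37). Both had adjusted p = 0.618 (limma) and overlapping groups, and with the background taken from all probes CREB3L4 differed by -0.58. CREB3L2 differed by -1.41, and NFYC, a subunit of the NF-Y factor of the ER stress element, by 0.73.

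ER chaperones and folding enzymes divided evenly, with 7 higher and 8 lower of 15 and a median of -0.02. MANF, a secreted ER stress protein, read 12.07 ± 0.34 in outer and 11.40 ± 0.37 in inner cells, a log2 difference of 0.67 (limma, adjusted p = 0.618). DNAJB9, an ER co-chaperone and target of spliced XBP1, differed by 0.88, and HYOU1, an ER chaperone detected on 1 outer and 3 inner arrays, by -0.72. Of 13 genes of ER-associated degradation 7 were higher and 6 lower. EDEM1, which directs misfolded glycoproteins to degradation and is also a target of spliced XBP1, read 9.16 ± 0.83 in outer and 8.09 ± 0.30 in inner cells, a difference of 1.07 (limma, adjusted p = 0.599), whereas the ER lectin OS9 differed by -0.30 and the ligase adaptor SEL1L by -0.87. Of 10 translocation and secretion genes 6 were higher, with SEC62 at 1.32, SEC61A1 at 0.43 and SSR3 at -0.94. SEC31A of that list (outer 9.03, inner 9.08) was bright but outside the test, as its detection p lay off the regular steps.

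On the arm of eIF2alpha, 4 of 11 tested genes were higher and 7 lower, with a median of -0.13. They were kinases, a phosphatase subunit, eIF2B subunits, EIF2S1 (eIF2alpha itself) and DNAJC3. The eIF2B subunits, which recharge eIF2 and are the target of its phosphorylated form, did not share a direction: EIF2B5 was at -0.64, EIF2B1 at -1.33 and EIF2B3 at 0.36. The haem-sensing kinase EIF2AK1 differed by -0.41 and the kinase activated by double-stranded RNA, EIF2AK2, by 0.58. Of 13 targets and partners of ATF4, 5 were higher and 8 lower with a median of -0.06. SESN2, a stress-induced inhibitor of mTORC1, differed by -1.82 (limma, adjusted p = 0.660), the alanine aminotransferase GPT2 by 1.28 and the amino acid transporter SLC7A5 by -0.33. Of 9 genes of stress-linked cell death 3 were tested, TRAF2 at 0.41, MAP3K5 at 0.44 and BAK1 at 0.07. MAP3K5 turned to -0.083 with the background taken from all probes. With detection set by intensity, 5 of the 9 would enter. TNFRSF10B (outer 8.65, inner 9.17) and CASP4 probe ILMN_7434 (outer 10.29, inner 10.36) were bright, but their detection p lay off the regular steps. Both had lower means in outer cells, so the 3 tested genes do not give the direction of the list. Since none of these differences passed, they are given as values, and several rest on 1 array or on the background. Without outer replicate 2, EIF2B1 was at -0.37, CREB3L2 at -0.48 and SEC62 at 2.47, and without outer replicate 3 EIF2AK2 was at 0.15. Without inner replicate 3 SEL1L was at -0.075 and DNAJB9 at 0.52, and without inner replicate 4 SEC62 was at 0.60, SEC61A1 at 0.16 and SSR3 at -0.58. With the background taken from all probes, SESN2 was at -0.73, GPT2 at 0.77, HYOU1 at -0.044, SEL1L at -0.16, SSR3 at -0.089, SEC61A1 at 0.028, NFYC at 0.097 and TRAF2 at 0.037.

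**Figure D4:**
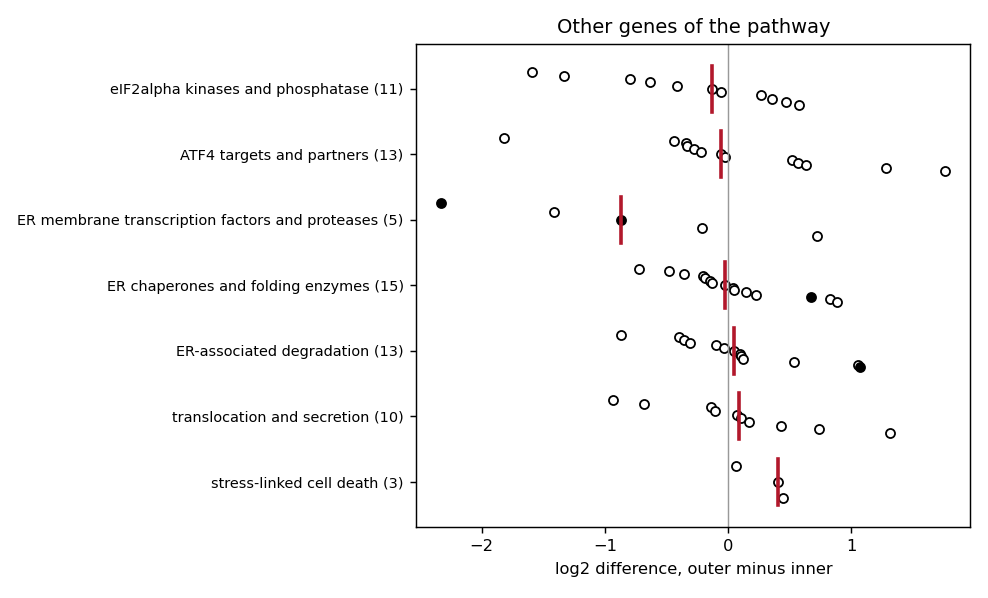
Log2 difference, outer minus inner, of each tested gene in 7 lists of other pathway genes, with the number tested in brackets. Filled points have an unadjusted p below 0.05, and none passed after adjustment. CREB3L4 among them met the filter on detection only through the inner arrays, where it is high. Red bars mark medians, which run from -0.87 for ER membrane factors to 0.41 for the 3 tested cell death genes. TNFRSF10B and CASP4 of that list were bright but outside the test.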

How the data were processed

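Per the file headers, intensities were deposited as bead means, neither background-subtracted nor normalized, and a detection p-value for each probe and array. The authors also deposited scaled values, a ratio of each intensity to its array's mean as the values show, and inner over outer ratios. Bead standard errors (a signal) and mean bead numbers (other) were deposited beside them. Software is not given in the sources used here.

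Background correction used limma 3.58.1 in R 4.3.3 (normexp from detection p, offset 16), then quantile normalization and log2. Its parameters came from the 19052 probes whose detection p is a whole multiple of 1/708 on all arrays (tolerance 0.001 of a step). The other 1537 are not ranks among controls, and with them the background SD was 262.5 to 391.3 in place of 6.24 to 11.7. Testing was limited to probes detected (p below 0.01) on 4 or more arrays (lmFit, eBayes, Benjamini-Hochberg, threshold 0.05). A total of 1 probe without beads was left out. A probe's intensity threshold is the lowest intensity at which regular probes had detection p below 0.01. Bounds set the mean of one group against the higher of that threshold and the probe's own value in the other.

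Symbols were updated through RefSeq for 3576 probes. All members are named. Of each list, up to 3 genes with the smallest p were named, and up to 2 of the other direction where those 3 agreed. Members, lists and the choice of background were made with earlier results of these data known. The fit was tested on simulated data. Same-numbered samples correlated at -0.01 to 0.04, where all pairs of an outer and an inner sample ran from -0.03 to 0.04. Correlations so small can only describe what remains once each probe's own level is taken out. They do not measure how alike the outer and inner profiles are. The best inner match had the same number for outer replicates 1, 2 and 3 but not for 4. Values this close together do not settle whether numbers pair the samples, and the main fit used no pairing. Figures used matplotlib 3.10.9 in Python 3.11.15.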

Additional observations from a re-analysis of the deposited data

Results flagged for a closer look

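Among the 11 member probes, 1 of the 4 outer values stood apart from its group for 2 probes, out of 22 groups looked at. About 1 group in 20 would do so by chance. HERPUD1 had its lowest log2 level, 10.47, on outer replicate 1, while the remaining outer arrays held 11.49 to 11.67. The ERN1 probe ILMN_26116 had its highest, 4.90, on outer replicate 3, while the remaining outer arrays held 4.51 to 4.57, and none of these exceeded the detection threshold of its array.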

How the results depend on the processing

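No member and no other pathway gene passed the adjusted threshold under any of the 18 alternatives, which changed background, scaling, filter, variance model, block or the arrays used. Over the whole array 4 probes passed, with 1 when the background came from all probes and 2 with a saddle-point background and offset 50. The count was 2 with offset 50, 2 with no filter on detection and 0 with detection on all 8 arrays. With the replicate number as a block it was 0, and whether numbers pair the samples is not known. Leaving out 1 array gave 1 to 5. Without a filter 1096 of 20588 probes had an unadjusted p below 0.05, and 358 of 4179 with detection on all 8 arrays, against 539 of 6698. Leaving out 1 array reversed ATF6 (-0.72 to 0.64), DDIT3 (-1.26 to 1.47), HERPUD1 (-0.21 to 0.21), ASNS (-0.40 to 0.57), TRAF2 (-0.11 to 0.79), MAP3K5 (-0.46 to 1.33) and BAK1 (-0.13 to 0.25). Among the differences given for members and named pathway genes, the background from all probes reversed ASNS (-0.11) and MAP3K5 (-0.083); the cause was not tested. ERN1 probe ILMN_20244 kept its direction (0.46 to 2.91), as did TRIB3 (-0.64 to -0.26). For ATF4, EIF2AK3 and ERN1 probe ILMN_26116 the alternatives were run with no filter on detection, chosen after seeing the data, with differences of -0.19 to -0.08, 0.07 to 1.34 and 0.01 to 0.15. The bounds without 1 outer array were also added after seeing the data. Signal near background limits ERN1 and EIF2AK3, and the number of arrays limits every interval.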
